A study of Mus musculus with 95 samples.

Results

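Etnppl and 4 other genes that make or consume phosphoethanolamine were followed through the nucleus accumbens of alcohol-dependent, non-dependent and naive mice. They are 5 of the 55471 features of the deposited count table: Etnppl, Etnk1, Pcyt2, Chka and Sgpl1. Their symbols were matched to Ensembl identifiers, 1 identifier each, and all 5 passed the filter on low counts in every comparison. The genes were selected on results of these same libraries. Which values decided is not recorded, so all treatment differences in the IP fraction are taken as used and are given as a description, with no test. Their values between fractions, in the input fraction and between the sexes are tested. Whether these values had a part in the choice is not recorded either, so their p-values hold only if they had none.

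Phosphoethanolamine is the phosphorylated head group from which cells build phosphatidylethanolamine, a major phospholipid of brain membranes. Ethanolamine kinase makes it from ethanolamine in the Kennedy pathway, and the breakdown of sphingosine 1-phosphate releases it as well. Ethanolamine-phosphate phospho-lyase, the product of Etnppl, destroys it, with acetaldehyde, ammonia and phosphate as products. In rodent and human brain, Etnppl RNA is known as an astrocyte transcript.

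All mice carried the transgene Tg(Aldh1l1-EGFP/Rpl10a)JD130Htz on a mixed B6;FVB background, in which regulatory sequence of the astrocyte gene Aldh1l1 drives a ribosomal protein fused to a fluorescent tag. Dependent mice had been through 5 rounds of CIE, a chronic intermittent exposure to ethanol, which in the CIE-2BC design alternates with free choice between bottles. Controls given 2BC without CIE form the non-dependent group, and naive mice never received ethanol. The age of the mice is not given in the sources used here. Tagged ribosomes were purified from accumbens punches to give the IP library of a mouse, which is enriched in RNA on ribosomes of cells that express the transgene. An aliquot set aside beforehand gave its input library, which holds RNA of the whole punch.

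The IP libraries came from 18 dependent mice (10 female, 8 male), 13 non-dependent mice (8 female, 5 male) and 15 naive mice (8 female, 7 male). The input libraries came from 18 dependent, 15 non-dependent and 16 naive mice. Each mouse belonged to 1 of 6 batches, and batches C and G held 1 dependent female each. Naive mice are missing from batch I and non-dependent mice from batch L. All 10 astrocyte markers were higher in IP than in input, with a median log2 fold change of 3.10, while all 6 neuron markers were lower. Of all genes tested, 33.6% were called higher and 45% lower. All markers of medium spiny neurons (6), microglia (7), endothelium (5) and blood (2) were lower too. Of 6 oligodendrocyte markers 5 were lower and Cnp higher, and of 5 ependymal and choroid plexus markers 3 were higher and 1 lower. The summed neuron markers still had a median of 1162 CPM in dependent IP libraries, against 3373 CPM in input. Libraries held 14314236 to 27146790 counts in IP and 12803108 to 23948193 in input. The IP library of mouse K15, a non-dependent male, stood apart: its deviations correlated at -0.64 with those of its own batch K and at 0.66 with those of batch I. Fitted results that rest on it are given with and without it, and plain differences within batch K only with it.

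Etnppl (ENSMUSG00000019232) is a protein-coding gene on the plus strand at chr3:130617448-130637521 (GRCm38), with 8262 bases of exon and no annotated gene overlapping it. Sgpl1 (ENSMUSG00000020097), the gene of sphingosine 1-phosphate lyase, lies on the minus strand at chr10:61098642-61147703. The promoters of both are shown because Etnppl and Sgpl1 were the members with the largest dependent minus naive differences in IP and their promoters differ in their content of CG. The sequences are from RefSeq (GRCm38.p6), at chr3:130617198-130617497 on the plus strand (the first of 2 entries for Etnppl) and chr10:61147635-61147934 on the minus strand, and every CG dinucleotide is in capitals.
Etnppl: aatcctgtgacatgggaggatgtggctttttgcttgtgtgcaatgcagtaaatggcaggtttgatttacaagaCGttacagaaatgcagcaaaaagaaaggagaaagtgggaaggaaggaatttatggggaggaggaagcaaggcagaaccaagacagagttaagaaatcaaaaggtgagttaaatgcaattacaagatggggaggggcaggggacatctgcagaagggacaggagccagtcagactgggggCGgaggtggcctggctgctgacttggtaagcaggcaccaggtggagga
Sgpl1: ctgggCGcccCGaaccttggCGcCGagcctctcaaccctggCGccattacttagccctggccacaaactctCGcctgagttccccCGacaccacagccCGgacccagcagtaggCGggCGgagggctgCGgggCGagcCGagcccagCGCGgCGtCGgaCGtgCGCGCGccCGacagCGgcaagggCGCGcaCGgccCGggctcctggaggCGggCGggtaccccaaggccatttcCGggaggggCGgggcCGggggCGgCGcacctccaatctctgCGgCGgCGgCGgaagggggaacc
The Etnppl promoter held 2 CG in its 300 bases, and 23.3% of the 32851 promoters of the table held as few. The Sgpl1 promoter held 38, as did that of Etnk1, and the Chka promoter held 33, against a median of 7 over all promoters. The CG letters read the same on both strands. These counts describe the letters only.

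Etnppl was the most enriched of the 5 genes on astrocyte ribosomes. It averaged 112 ± 77.2 CPM (a count scaled to the total of its library; SD, n = 46) in IP libraries and 17.7 ± 13.4 CPM (SD, n = 49) in input libraries. The ratio of IP to input within a mouse ran from 4.41 to 12.2, with a median of 6.86, and was above 1 in 46 of 46 mice. With the mouse as a block, the log2 fold change of IP over input was 2.91 ± 0.04 (SE; adjusted p = 4.94e-54, edgeR quasi-likelihood test over 21743 genes). The astrocyte marker Aldh1l1 itself was at 3.09 ± 0.05.

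Sgpl1, which cleaves sphingosine 1-phosphate into phosphoethanolamine and a long-chain aldehyde, was also higher in IP in every mouse. It averaged 28.2 ± 5.96 CPM in IP (SD, n = 46) and 13.1 ± 3.59 CPM in input (SD, n = 49). The within-mouse ratio ran from 1.16 to 5.46, and the log2 fold change was 1.29 ± 0.06 (SE; edgeR adjusted p = 7.48e-29).

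Chka, a kinase that phosphorylates choline and, with lower preference, ethanolamine, differed less between the fractions. Its log2 fold change of IP over input was 0.29 ± 0.05 (SE; edgeR adjusted p = 2.78e-06), with the IP above the input in 26 of 46 mice. Pcyt2, the gene of the enzyme that turns phosphoethanolamine into CDP-ethanolamine, was at 0.12 ± 0.05 (SE; edgeR adjusted p = 0.0257). Without mouse K15 the Pcyt2 value was 0.09 with an adjusted p of 0.0564, with RLE size factors in place of TMM it was 0.07 with 0.179, and its CPM was higher in IP in 16 of 46 mice. The CPM here are scaled to the library total, and the fitted values to the TMM factors.

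Etnk1, ethanolamine kinase, was the member that was lower on astrocyte ribosomes. It averaged 76.6 ± 10.2 CPM in IP (SD, n = 46) and 121 ± 19.7 CPM in input (SD, n = 49), with a log2 fold change of -0.50 ± 0.04 (SE; edgeR adjusted p = 6.09e-20). Its IP value was above the input value in 1 of 46 mice. Of the 5 genes, 4 were thus higher in IP and 1 lower. Of all genes tested, 33.6% were called higher and 45% lower, so a call alone says little here and the sizes carry the comparison. The median over all genes was -0.16. The part of RNA from other cells in the members' IP values was not tested.

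Set per length of exon, the order of the genes differed between the fractions. In IP, Etnppl stood at 13.6 ± 9.34 CPM per kilobase of exon and Pcyt2 at 12.1 ± 5.11 (SD, n = 46 each), a pair that overlapped within their spread. Etnk1 followed at 5.42 ± 0.72, Sgpl1 at 4.59 ± 0.97 and Chka at 3.81 ± 1.14, neighbours that also overlapped. In input, Pcyt2 was at 13.3 ± 6.4, Etnk1 at 8.56 ± 1.39, Chka at 3.71 ± 1.77, Etnppl at 2.14 ± 1.63 and Sgpl1 at 2.12 ± 0.58 CPM per kilobase (SD, n = 49 each). Etnppl and Sgpl1 were not separated in input. Exon lengths are unions over the annotated transcripts, so these levels are approximate.

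**Figure D1:**
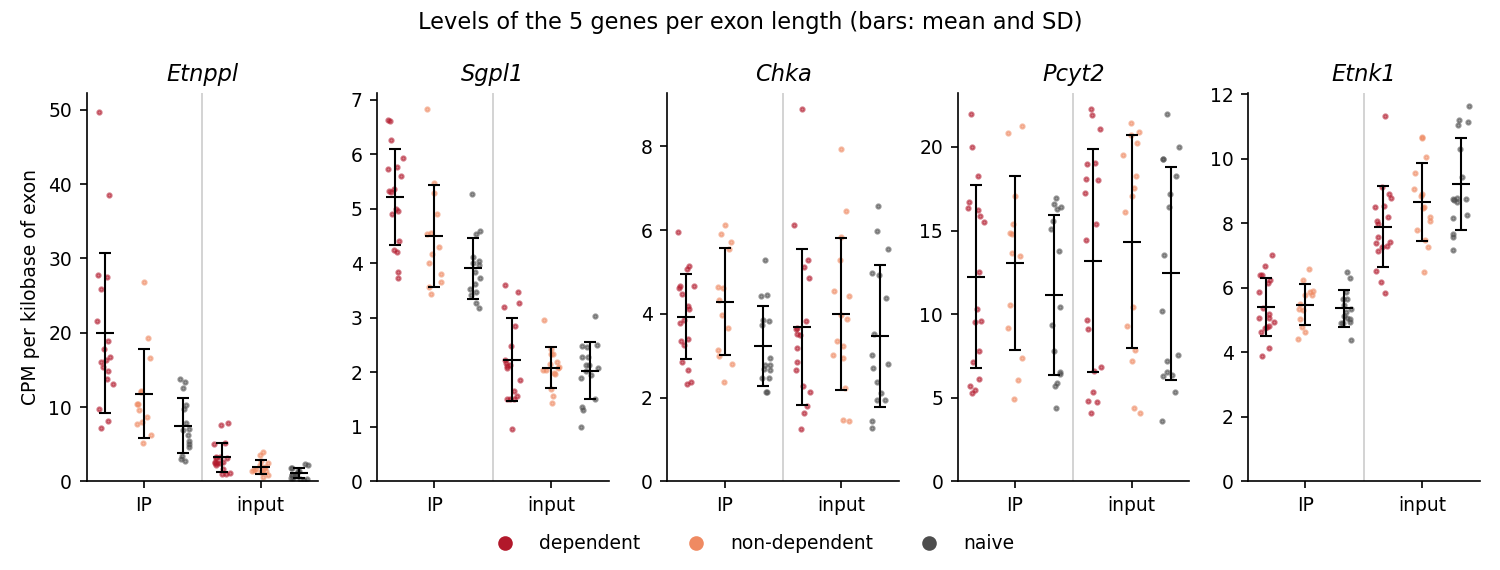
Levels of the 5 genes in CPM per kilobase of exon, with 1 panel per gene and its own axis from 0, IP left and input right, and dependent, non-dependent and naive mice in that order within each. Points are libraries and bars are mean and SD. Etnppl and Sgpl1 are high in IP, and Etnk1 is high in input.

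Dependent mice had the highest Etnppl levels on astrocyte ribosomes. Their IP libraries ran from 59.7 through a median of 136 to 411 CPM (n = 18). Non-dependent mice ran from 42.9 through 86.3 to 222 CPM (n = 13), and naive mice from 23.2 through 57.5 to 114 CPM (n = 15). The 3 groups overlapped, but the highest naive library lay below the dependent median. Behind these levels stood 396 to 10516 counts of Etnppl per IP library, so counting error was small against the spread between mice.

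With batch and sex taken into account, Etnppl in IP was 2.09-fold higher in dependent than in naive mice (log2 fold change 1.07 ± 0.19 SE, 95% interval 0.68 to 1.45). Against non-dependent mice it was 1.84-fold higher (0.88 ± 0.18, 0.52 to 1.24). Between non-dependent and naive mice the difference was 0.19 ± 0.21 (-0.25 to 0.62). Over the alternatives tried, these values ran from 0.95 to 1.39, from 0.77 to 1.02 and from 0.07 to 0.62. The last was highest, at 0.62, without a batch term.

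**Figure D2:**
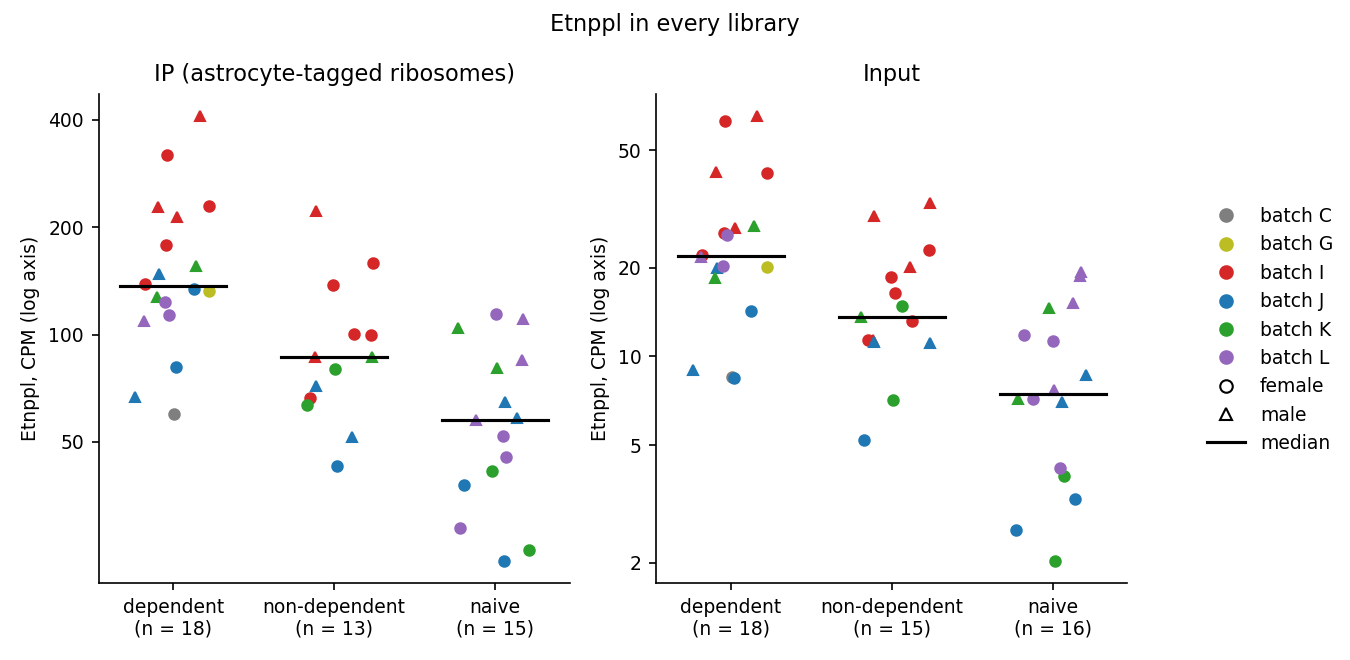
Etnppl in every IP library (left) and every input library (right), in CPM on log axes, by treatment. Points are mice, coloured by batch and shaped by sex, and lines are medians. Dependent mice are highest and naive mice lowest in both fractions, and batch I, which holds no naive mouse, is high within its groups.

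Etnppl levels differed between batches, and inside each batch the mean was highest in dependent mice. Mean log2 levels of batch I were 2.61-fold above those of batch J in IP and 3.05-fold in input. These means run over all treatments, and batch I holds no naive mouse, so treatment is part of these folds. Among dependent mice alone, mean log2 levels in batches I and J were 7.86 and 6.68 in IP and 5.27 and 3.66 in input. Among non-dependent mice they were 6.86 and 5.77 in IP and 4.24 and 3.20 in input. In batch J, the 4 dependent mice had 66.8, 81.1, 134 and 148 CPM in IP, the 3 non-dependent mice 42.9, 51.5 and 71.8, and the 4 naive mice 23.2, 37.8, 58.3 and 64.7. The dependent and naive mice of that batch did not overlap.

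In batch K, the 2 dependent mice, both male, had 127 and 156 CPM, and the 3 non-dependent mice had 63.4, 80.0 and 86.3. The naive females of batch K had 24.8 and 41.4 CPM and its naive males 80.5 and 104. In batch L, the 3 dependent mice had 109, 114 and 123 CPM, against a range of 28.6 to 114 CPM in 7 naive mice, so those groups overlapped. In batch I, 7 dependent mice ran from 138 to 411 CPM and 7 non-dependent mice from 66.6 to 222, and 4 of the dependent mice lay above every non-dependent mouse.

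On the log2 scale, dependent minus naive in IP was 1.25 in batch J, 1.37 in batch K and 0.85 in batch L. Dependent minus non-dependent was 0.998 in batch I, 0.91 in batch J and 0.89 in batch K. Non-dependent minus naive was 0.34 in batch J and 0.48 in batch K. These within-batch values are plain differences of means without regard to sex. In batch K they set dependent mice that were all male against groups of both sexes. Its non-dependent mice include K15, at 86.3 CPM, and were not taken without it here.

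In the input libraries of the same mice, the treatment difference of Etnppl was tested. Dependent mice ran from 8.45 through a median of 21.9 to 65.3 CPM (n = 18). Non-dependent mice ran from 5.23 through 13.6 to 33.1 CPM (n = 15), and naive mice from 2.03 through 7.45 to 19.3 CPM (n = 16). The highest naive value lay below the dependent median here too.

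Etnppl in input rose 2.7-fold in dependent over naive mice (log2 fold change 1.43 ± 0.21 SE; edgeR adjusted p = 3.08e-05 over 19691 genes), which placed it 8th of all genes by p. It rose 1.8-fold in dependent over non-dependent mice (0.85 ± 0.18 SE; edgeR adjusted p = 0.0154). Non-dependent over naive was at 0.59 ± 0.23 (SE; edgeR adjusted p = 0.512), and at 0.35 to 0.91 over the alternatives. These libraries came from the same punches of the same mice as the IP, so they are no independent replication of it. Within treatment, sex and batch, Etnppl in IP and in input correlated at r = 0.88. The input p-values and rank are therefore not free of a choice made on IP values. In a bulk sample, fewer cells of a type and less RNA per cell cannot be told apart.

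The dependent over naive rise in input stayed past the threshold under all 10 alternatives, between 1.28 and 1.72, with adjusted p-values of 7.32e-10 to 0.00849. The dependent over non-dependent rise did not: without batch I it was 0.58 with an adjusted p of 0.999, in batches J and K alone 0.68 with 0.999, without batch J 0.90 with 0.0844, and without a batch term 0.74 with 0.407. Within batches, dependent minus non-dependent in input was 1.03 in batch I, 0.46 in batch J and 0.97 in batch K. Dependent minus naive was 1.25 in batch J, 1.94 in batch K and 1.03 in batch L. The dependent mice of batch K were all male, and its other groups held both sexes. Non-dependent minus naive was 0.79 in batch J and 0.97 in batch K, in J more than dependent minus non-dependent.

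Among the 5 genes, 1 rose and 0 fell in input between dependent and naive mice, where 1.42% of all genes were called higher and 0.965% lower. Between dependent and non-dependent mice 1 of 5 rose, against 0.31% of all genes. Between non-dependent and naive mice 0 of 5 passed in edgeR or DESeq2 and 1 had an unadjusted p under 0.05, where 0.122% of all genes were called. The members were chosen with IP results of the same mice known, so nothing is read from these input counts.

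Astrocyte markers give the setting of these values. In IP, the summed level of 10 astrocyte markers ran from 13077 to 22333 CPM in dependent mice, 14180 to 22156 CPM in non-dependent mice and 16281 to 21425 CPM in naive mice, with none of the 10 at 0. In input it ran from 2285 to 3183 CPM in dependent mice, 2242 to 2647 CPM in non-dependent mice and 2138 to 2800.4 CPM in naive mice. In IP, 3 of the 10 were called higher in dependent than in naive mice and 0 lower, where 2.81% of all genes were called higher. The median log2 fold change of the 10 there was -0.06. In input 2 were called higher and 0 lower, where 1.42% of all genes were called higher, and the median was 0.12. The 2 called in input are named for that reason and given with their input values, Gjb6 (connexin 30) and Gfap (the intermediate filament of reactive astrocytes). Gjb6 was at 0.76 ± 0.13 and Gfap at 1.03 ± 0.19 (SE; edgeR adjusted p = 0.000578 and 0.00102), while Aldh1l1 was at 0.16 ± 0.13. With a covariate for astrocyte against neuron markers in the fit, the Etnppl difference was 1.37 ± 0.19 in input and 1.05 ± 0.19 in IP.

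Marker sums of microglia and medium spiny neurons are given next, with the calls of their genes. The summed level of 7 microglial markers reached 517 CPM in dependent IP libraries, against at most 197 CPM in non-dependent and 211 CPM in naive ones, with medians of 179, 152 and 167 CPM. In input its medians were 441 CPM in dependent, 413 CPM in non-dependent and 449 CPM in naive mice. Of the 7 genes, 0 were called between dependent and naive mice in either fraction by edgeR or DESeq2. Against non-dependent mice, edgeR called C1qa and C1qb higher in dependent IP, where 1.1% of all genes were higher. In input it called C1qa higher and P2ry12 lower, where 61 of 19691 genes were higher and 9 lower. The summed level of 6 medium spiny neuron markers in IP had a median of 2169 CPM in dependent, 2573 CPM in non-dependent and 2771 CPM in naive mice. In input the medians were 6335 CPM in dependent, 7041 CPM in non-dependent and 8053 CPM in naive mice. Between dependent and naive mice edgeR called 1 of these 6 lower in IP and 0 in input. DESeq2 called 4 and 0, and 5 and 3 had an unadjusted p under 0.05. By edgeR 1 of 6 oligodendrocyte markers fell in IP, 1 of 5 endothelial markers fell in input, and 0 neuron or blood markers were called. Of all genes, 1.86% were called lower in IP and 0.965% in input.

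Ependymal and choroid plexus markers, from the lining of the ventricle beside the accumbens, were low, and their fitted dependent minus naive values were near that of Etnppl in IP. The summed level of 5 such markers in IP ran from 8.69 through a median of 46.9 to 132 CPM in dependent, 8.54 through 26.7 to 94.2 CPM in non-dependent and 2.14 through 21.1 to 64.6 CPM in naive mice. In input the medians were 44.4 CPM in dependent, 34.02 CPM in non-dependent and 24.01 CPM in naive mice. The median log2 fold change of the 5 between dependent and naive mice was 0.99 in IP and 1.12 in input. In edgeR 0 of 5 passed in either fraction, with 4 of 5 at an unadjusted p under 0.05 in each, and DESeq2 called 2 in IP and 1 in input. In non-dependent libraries 1 of the 5 had a median of 0. The part of these shifts in the Etnppl difference was not tested.

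Sgpl1 had the second largest dependent minus naive difference of the members in IP. Its IP libraries ran from 22.9 through a median of 32.6 to 40.8 CPM in dependent mice (n = 18), from 21.2 through 26.4 to 41.9 CPM in non-dependent mice (n = 13) and from 19.5 through 23.6 to 32.4 CPM in naive mice (n = 15). The highest non-dependent value was that of mouse K15. Dependent mice were 1.30-fold above naive mice (log2 fold change 0.38 ± 0.10 SE, 95% interval 0.17 to 0.58). Without the IP library of mouse K15 that was 0.35 ± 0.10, and over all alternatives it ran from 0.30 to 0.42.

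Within batches, Sgpl1 in dependent minus naive IP was 0.41 in batch J, where the 4 dependent mice (30.5 to 32.99 CPM) lay above all 4 naive mice (20.1 to 27.9 CPM). It was 0.16 in batch K and 0.31 in batch L. Dependent minus non-dependent was 0.40 in batch I, 0.16 in batch J and -0.27 in batch K. The batch K value holds the library of mouse K15, at 41.9 CPM against 27.9 and 21.9 CPM in the other non-dependent mice of that batch. In the fit over batches dependent minus non-dependent was 0.20 ± 0.10 (SE) with mouse K15 and 0.28 ± 0.09 without it. Non-dependent minus naive was 0.17 ± 0.11 with that library and 0.07 ± 0.11 without it.

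In input, Sgpl1 ran from 5.97 through 13.1 to 22.1 CPM in dependent mice (n = 18), from 8.80 through 12.78 to 18.2 CPM in non-dependent mice (n = 15) and from 6.18 through 12.9 to 18.6 CPM in naive mice (n = 16). The groups overlapped throughout. Dependent minus naive was -0.04 ± 0.12 (SE; edgeR adjusted p = 0.955, 95% interval -0.28 to 0.20), and its sign changed between alternatives. Within batches it was -0.24 in J, 0.19 in K and -0.16 in L. Dependent minus non-dependent in input was 0.18 ± 0.11 (SE; edgeR adjusted p = 0.833), with 0.37 in batch I, 0.04 in batch J and -0.17 in batch K, so the batch I value was close to that in IP. Non-dependent minus naive was -0.22 ± 0.13 (SE; edgeR adjusted p = 0.842). Sgpl1 counts in input were low, at 81 to 444 per library.

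Set side by side, the dependent minus naive difference in IP minus that in input was 0.37 ± 0.14 for Sgpl1 and -0.41 ± 0.12 for Etnppl (SE). The Etnppl difference was thus the smaller one in IP, and the Sgpl1 difference the larger. These values hold the IP contrast and are a description. Of all genes, 0.356% were called in this comparison, and nothing is read from the members' place among them.

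Chka, Pcyt2 and Etnk1 had smaller differences than Etnppl between dependent mice and either other group, in both fractions. Chka in IP averaged 47.3 ± 12.3 CPM in dependent mice, 51.7 ± 15.3 CPM in non-dependent mice and 39.0 ± 11.5 CPM in naive mice (SD, n = 18, 13 and 15). Dependent minus naive was 0.20 ± 0.10 and non-dependent minus naive 0.30 ± 0.12 (SE), and the value for non-dependent minus naive was 0.26 ± 0.12 without the library of mouse K15. In input, Chka was at -0.01 ± 0.16 for dependent minus naive (SE; edgeR adjusted p = 0.991). Its span between batch means over all treatments was 1.73-fold in IP and 2.31-fold in input. Chka exons overlap those of the antisense genes Gm16066 and AC133523.2, whose reads cannot be told apart from its own, since the use of strand in counting is not given in the sources used here.

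Pcyt2 varied mostly with batch. Over all treatments, its mean log2 level in batch I was 2.5-fold above that in batch J in IP and 2.93-fold in input. Among dependent mice alone, the means in batches I and J were 6.15 and 4.97 in IP and 6.33 and 4.59 in input. Its values within a treatment ran from 23.04 to 95.4 CPM in dependent, 21.5 to 92.5 CPM in non-dependent and 19.1 to 73.6 CPM in naive IP libraries. Dependent minus naive was 0.13 ± 0.13 in IP (SE, 95% interval -0.13 to 0.39). In input it was -0.05 ± 0.10 (SE; edgeR adjusted p = 0.909, 95% interval -0.26 to 0.15). The input interval leaves out a change as large as that of Etnppl there, and it does not show that Pcyt2 was equal in the groups.

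Etnk1 was the steadiest member, with an SD of 0.18 in IP and 0.19 in input on the log2 scale within treatment, sex and batch. In IP it averaged 76.6 ± 12.83 CPM in dependent, 77.5 ± 9.02 CPM in non-dependent and 75.9 ± 7.99 CPM in naive mice (SD, n = 18, 13 and 15). In input it averaged 112 ± 17.8 CPM in dependent, 123 ± 17.1 CPM in non-dependent and 130 ± 20.2 CPM in naive mice (SD, n = 18, 15 and 16). Dependent minus naive in input was -0.23 ± 0.07 (SE, 95% interval -0.37 to -0.08), which missed the threshold over all genes (edgeR adjusted p = 0.0788) and stayed negative under all 10 alternatives. Etnk1 exons overlap those of the antisense gene 1700126G02Rik.

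In the IP comparison of dependent with naive mice, 2 of the 5 members were called higher and 0 lower, where 2.81% of all 19979 genes were called higher and 1.86% lower. For dependent over non-dependent it was 1 of 5 (1.1% of all genes higher), and for non-dependent over naive 0 of 5 (0.44% of all genes). Since the members were chosen with IP treatment results known, nothing is read from these counts.

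**Figure D3:**
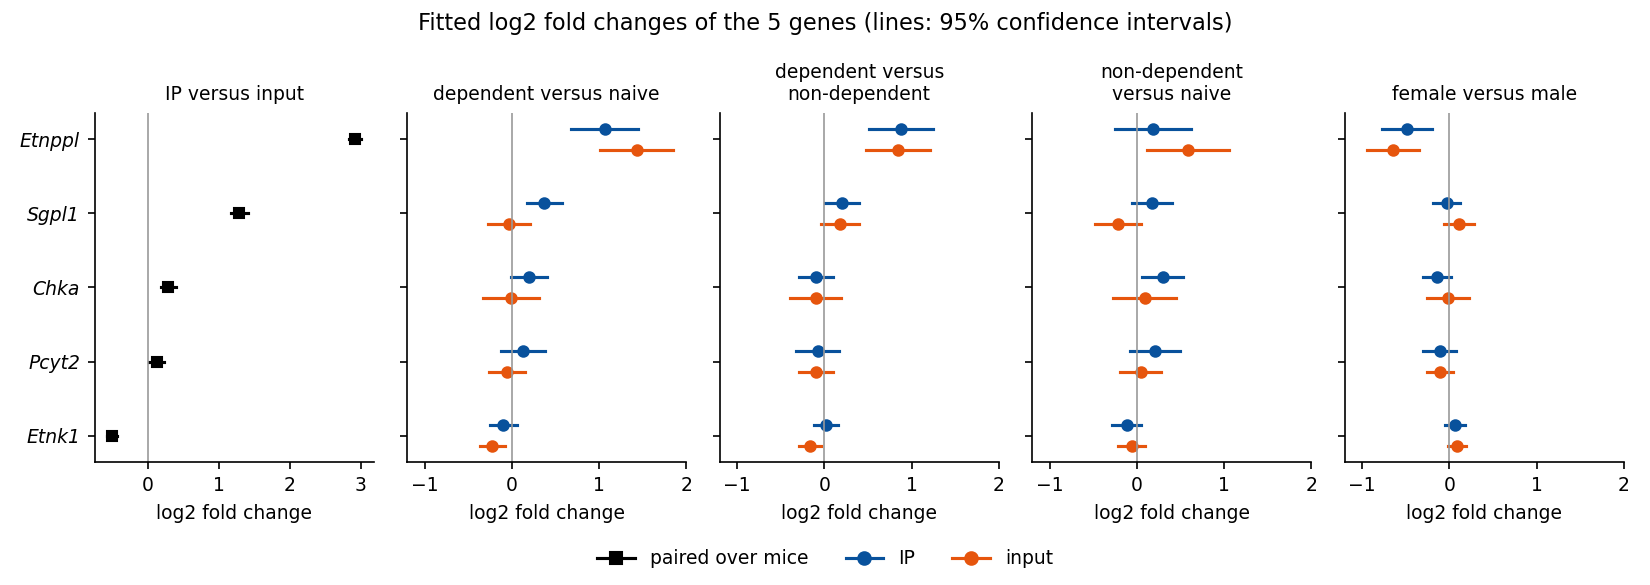
Fitted log2 fold changes of the 5 genes with 95% confidence intervals. The first panel compares IP with input over 46 mice, and the others show the treatment and sex comparisons in IP (blue, upper) and input (orange, lower). Etnppl stands right of 0 in both comparisons of dependent mice and left of 0 in female versus male, and Sgpl1 in dependent versus naive is at 0.38 in IP and -0.04 in input.

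Etnppl was lower in females than in males before correction for multiple tests. Naive females averaged 45.9 ± 29.4 CPM in IP and naive males 80.1 ± 21.4 CPM (SD, n = 8 and 7). The corresponding input values were 5.79 ± 3.87 CPM in naive females and 12.3 ± 5.26 CPM in naive males (SD, n = 8 each). The gap was smaller in the other groups. Among dependent mice, females averaged 151 ± 75.4 CPM in IP and males 182 ± 106 CPM, with 25.02 ± 16.4 and 28.9 ± 17.5 CPM in input (SD, n = 10 females and 8 males). Among non-dependent mice, females averaged 93.7 ± 39.1 CPM in IP and males 104 ± 67.6 CPM (SD, n = 8 and 5). In input, non-dependent females averaged 13.7 ± 5.82 CPM and non-dependent males 18.6 ± 9.39 CPM (SD, n = 8 and 7).

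Over the 3 treatments, female minus male was -0.49 ± 0.14 in IP (SE; edgeR adjusted p = 0.553) and -0.65 ± 0.15 in input (SE; edgeR adjusted p = 0.113). In input Etnppl ranked 11th of 19691 genes by p. In edgeR 0 of 5 members passed in either fraction, with 1 of 5 at an unadjusted p under 0.05 in each. DESeq2 called 0 of 5 in IP and 1 of 5 in input. The shares of all genes called were 0.0501% in IP and 0.0508% in input.

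The dependent minus naive difference of Etnppl in IP, female minus male, was 0.64 ± 0.33 on the log2 scale (SE). It is built from the IP treatment values and is a description.

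Etnppl in the IP of a mouse followed Etnppl in its input. After subtraction of the means of each treatment by sex by batch cell, the correlation over the 44 mice of batches I to L was r = 0.88 (Spearman's rho 0.89), with a permutation p of 1e-05 for each, the smallest that 100000 permutations can give, and 5e-05 adjusted over the 5 genes. Without the 2 mice farthest from the median IP value r was 0.89, and within batches it was 0.95 in I, 0.88 in J, 0.91 in K and 0.84 in L. The points of 3 mice that were alone in their cell lie at 0. Deviations sum to 0 within each cell, so 25 degrees of freedom remained for the 44 mice. The permutations moved deviations freely over all mice, which makes the p-values too small for all 5 genes. Values within a batch rest on fewer free deviations still, with 9 mice in batch K before subtraction. Both libraries came from the same punch, so a mouse's punch and dissection are shared.

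The correlation was weaker for the other genes. It was r = 0.56 for Chka (rho 0.47; permutation p = 0.00023 and 0.00152, 0.000575 and 0.00253 adjusted; 0.46 without the 2 farthest mice) and r = 0.50 for Pcyt2 (rho 0.54; permutation p = 0.00054 and 0.00023, 0.0009 and 0.000575 adjusted; 0.46 without the 2 farthest mice). Within batches, Chka ran from -0.17 in J to 0.76 in I, and Pcyt2 from 0.16 in L to 0.79 in I, so those relations did not hold in every batch. Etnk1 (r = 0.15, rho 0.17; permutation p = 0.324 and 0.279) and Sgpl1 (r = -0.07, rho -0.000846; permutation p = 0.642 and 0.996) had no relation that could be told from 0 over all mice. Within batches, Etnk1 ran from -0.97 in K to 0.50 in J, and Sgpl1 from -0.50 in L to 0.73 in J. Mouse K15 is alone in its cell, so its point lies at 0 here.

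**Figure D4:**
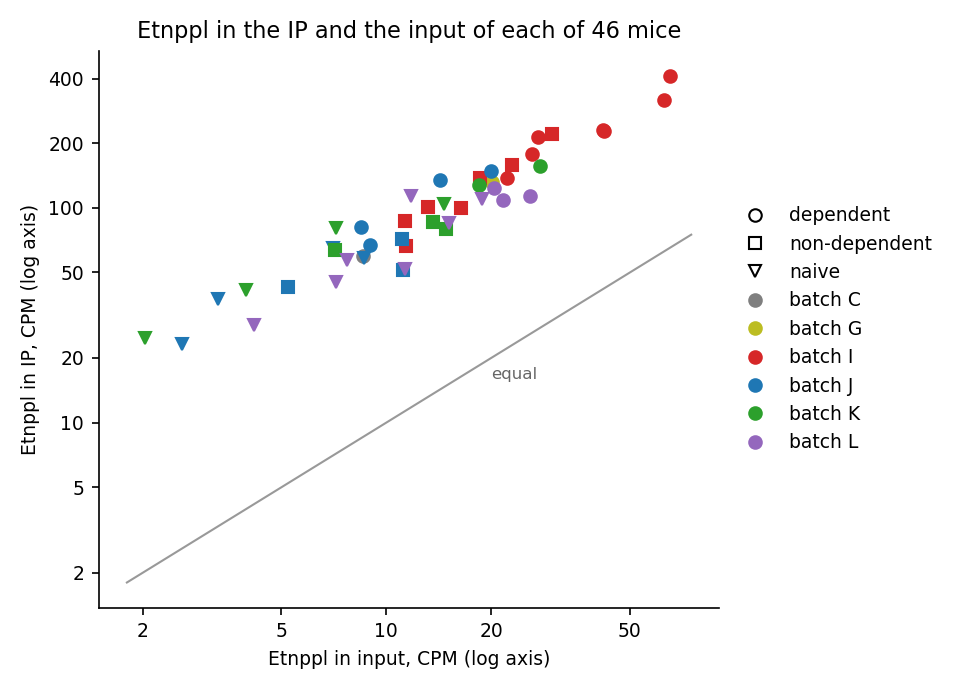
Etnppl in the IP (vertical) against the input (horizontal) of each of 46 mice, in CPM on log axes, with treatment as shape and batch as colour. All mice lie above the line of equal levels, and mice high in input are high in IP.

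The genes whose pattern was most like that of Etnppl were ranked by correlation over the 44 IP libraries of batches I to L, after subtraction of batch means, among 15123 genes of at least 1 CPM. The 6 highest were Tsc22d3 (r = 0.76), Farp1 (0.76), Mgst1 (0.75), Gjb6 (0.75), Mettl7a1 (0.74) and Vit (0.73). Of these, all but Vit, 5 genes, were called higher in dependent than in naive IP by edgeR, where 2.81% of all genes were called higher. The 6 were picked by likeness to Etnppl in these same IP libraries with treatment differences left in. Nothing is therefore read from that count. When the means of treatment by sex by batch cells were subtracted instead, the 6 highest genes shared 0 with these 6, whose own values were then 0.44 to 0.65. The other members ranked lower by the first measure: Chka was at 0.40, Sgpl1 at 0.32, Pcyt2 at 0.18 and Etnk1 at -0.16. By the second, Sgpl1 changed sign to -0.16, while Chka was at 0.49, Pcyt2 at 0.23 and Etnk1 at -0.12.

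Around the 5 genes, 76 others of the same pathways were examined, of which 71 passed the filter in the treatment fits. The lists were chosen with earlier results of these data known, so their counts are a description. In IP, 5 rose and 3 fell in dependent over naive mice, and 63 did not pass, with a median log2 fold change of 0.05 against 0.00 over all genes, of which 2.81% rose and 1.86% fell. In input 2 rose and 1 fell, where 1.42% of all genes rose and 0.965% fell. Between dependent and non-dependent mice 0 of 71 passed in IP or input by edgeR or DESeq2, with 11 and 4 at an unadjusted p under 0.05. Between non-dependent and naive mice 1 rose in IP, and 0 passed in input by either tool, with 9 at an unadjusted p under 0.05. Of the 8 calls between dependent and naive mice in IP, that of Mfsd2a held under all 11 alternatives. The other 7 kept their direction but missed the threshold under 3 of 11 (Cerk, Abat) to 7 of 11 (Sgpp1, Aldh2), mostly where batches were left out.

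Among 10 tested genes of the steps next to Sgpl1, 2 rose and 2 fell in IP, where 2.81% of all genes rose and 1.86% fell. Mfsd2a, a lipid transporter for lysophospholipids that is also reported to carry sphingosine 1-phosphate, rose in IP by 0.88 ± 0.12 (SE; edgeR adjusted p = 5.81e-06), to 97.5 ± 28.3 CPM in dependent against 49.0 ± 13.5 CPM in naive mice (SD, n = 18 and 15). It rose in input too (0.78 ± 0.16 SE; edgeR adjusted p = 0.00273), a call lost under 3 of 10 alternatives, with adjusted p-values up to 0.289. In non-dependent over naive IP it rose by 0.57 ± 0.14 (SE; edgeR adjusted p = 0.0425), a call that was lost under 4 of 11 alternatives, with adjusted p-values up to 0.357.

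Sgpp1, the phosphatase that returns sphingosine 1-phosphate to sphingosine, rose by 0.33 ± 0.10 in IP (SE; edgeR adjusted p = 0.0458) and by 0.36 ± 0.08 in input (SE; edgeR adjusted p = 0.0038), where the call was lost under 2 of 10 alternatives. Without the IP library of mouse K15 the IP value was 0.32 with an adjusted p of 0.054. The receptor gene S1pr1 fell by 0.26 ± 0.07 on the log2 scale (edgeR adjusted p = 0.016), and the lipid phosphatase gene Plpp3 fell by 0.20 ± 0.06 (edgeR adjusted p = 0.0431), both in IP.

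Elsewhere in the pathways, Cerk, ceramide kinase, rose in IP by 0.36 ± 0.09 (SE; edgeR adjusted p = 0.0177) as 1 of 21 tested genes of ceramide and sphingomyelin. Of all genes, 2.81% rose there. Cers1, a ceramide synthase of neurons, fell in input by 0.62 ± 0.16 on the log2 scale (SE; edgeR adjusted p = 0.0299), at 11.6 ± 8.80 CPM in dependent and 13.4 ± 9.23 CPM in naive mice (SD, n = 18 and 16). Its call was lost under 5 of 10 alternatives, and without a batch term the value was -0.22. Abhd4, a hydrolase of N-acylethanolamine synthesis, rose in IP by 0.26 ± 0.07 (SE; edgeR adjusted p = 0.0251) as 1 of 10 tested genes of that turnover. With 2.81% of all genes higher, nothing is read about either list from its 1 call.

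Acetaldehyde is a product of Etnppl and of ethanol oxidation, and Aldh2, the mitochondrial enzyme that removes it, rose in IP by 0.23 ± 0.07 (SE; edgeR adjusted p = 0.0417). The other 4 genes of acetaldehyde removal did not pass. Abat, which is like Etnppl a pyridoxal-phosphate enzyme of the aminotransferase type and breaks down GABA, fell in IP by 0.31 ± 0.07 on the log2 scale (SE; edgeR adjusted p = 0.00293), to 542 ± 52.6 CPM in dependent against 643 ± 64.1 CPM in naive mice (SD, n = 18 and 15). Among the other 5 tested genes of that list, 0 passed in edgeR or DESeq2 and 0 had an unadjusted p under 0.05.

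The genes that continue the Kennedy pathway did not pass. Among the 3 other genes of the ethanolamine branch, Cept1 was at -0.20 ± 0.11 and Selenoi at -0.19 ± 0.12 in dependent minus naive IP (SE; edgeR adjusted p = 0.372 and 0.489). Both encode enzymes that join CDP-ethanolamine to diacylglycerol. Etnk2, the third, was no higher than the median of the 3, -0.20. In dependent minus non-dependent IP the median of the 3 was -0.23, with 0 passed and 1 at an unadjusted p under 0.05. In the choline branch (4 genes), choline and ethanolamine transport (8 genes) and the phosphatidylserine route (4 genes), 0 passed in dependent minus naive IP by edgeR or DESeq2. There 0 had an unadjusted p under 0.05. Phospho1, a phosphatase of phosphoethanolamine and phosphocholine, did not pass the filter on low counts and was not tested.

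**Figure D5:**
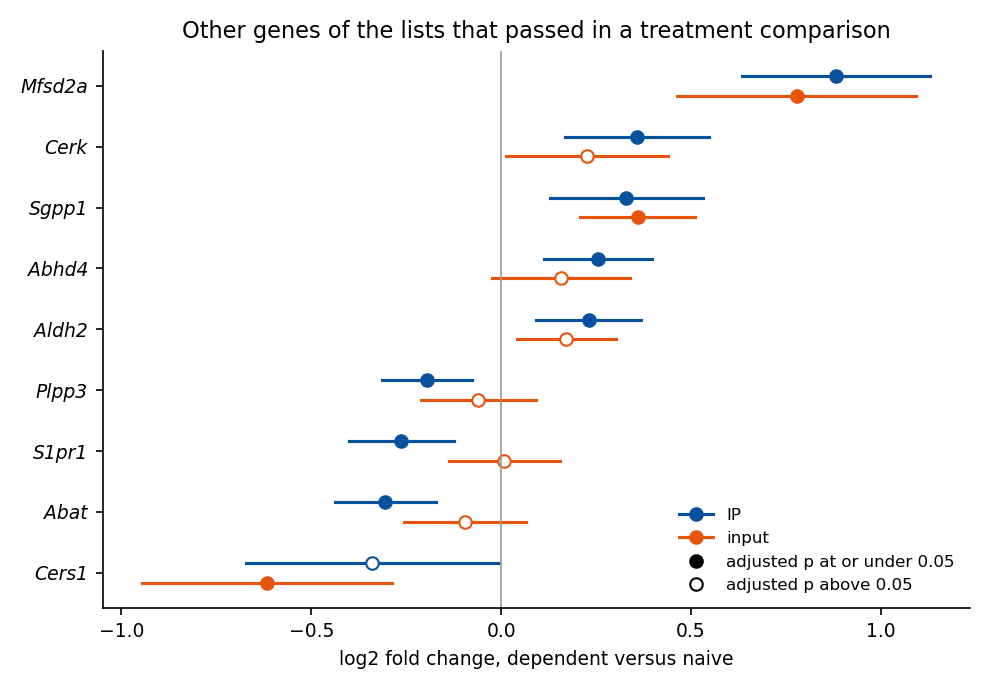
Log2 fold changes, dependent versus naive, of the 9 other pathway genes that passed in a treatment comparison, in IP (blue) and input (orange), with 95% confidence intervals. Filled points have an adjusted p at or under 0.05. Mfsd2a and Sgpp1 are filled in both fractions, and Cers1 in input alone.

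Many of these pathway genes are themselves more abundant on astrocyte ribosomes. Of 72 tested, 38 were higher in IP than in input and 24 lower, where 33.6% of all genes were higher and 45% lower, with a median log2 fold change of 0.27 against -0.16 over all genes. Plpp3 (3.11 ± 0.03), S1pr1 (3.19 ± 0.04) and Abhd4 (2.88 ± 0.03) had fold changes near that of Etnppl, and the aldehyde dehydrogenase genes followed, with Aldh9a1 (2.61 ± 0.03), Aldh7a1 (2.54 ± 0.04) and Aldh2 (2.17 ± 0.03; SE each). The edgeR adjusted p of each was at most 2.76e-53, and these genes were picked after their values were seen. Selenoi, like Etnk1 a gene of the ethanolamine branch, was lower in IP, at -0.57 ± 0.05 (SE; edgeR adjusted p = 2.54e-15).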

How the data were processed

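The authors deposited raw counts per gene, 1 column per library, with no normalization. The build was GRCm38, and the tools named are STAR 2.7.10b, Trimmomatic 0.39 and FastQC 0.11.9, per the submitters' processing notes. The counting program, annotation and strand setting are not given in the sources used here. The library kit was SMART-Seq PLUS (Takara), per the labels' protocols. Symbols and positions came from GENCODE M21. The members and gene lists were chosen with earlier results of these data known.

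Tests on counts were edgeR's quasi-likelihood tests (edgeR 4.0.16, R 4.3.3), with TMM factors and filterByExpr (minimum count 10, minimum total 15). P-values were adjusted by Benjamini-Hochberg over all genes of a fit and called at 0.05. Treatments were compared per fraction in batches I to L, in a model of treatment by sex means plus batch. Female and male differences were averaged with equal weight. Batches C and G drop out of these fits. Only batches J and K hold both non-dependent and naive mice; in I and L the dependent mice connect them. IP and input are paired, since each pair came from 1 mouse, per the labels. Their deviations from the mean of each fraction, treatment and sex had a median correlation of 0.669 over 7915 genes. It was above 0.1 in 45 of 46 mice, and mouse K15 had -0.377. Batch means were not subtracted, so batch shifts shared by both libraries of a mouse are part of these correlations. The mouse was a block in these fits, whose dispersion came from glmQLFit with the top 5% of genes. SEs were taken from the F statistic.

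CPM are counts over the library total. Correlations used log2(CPM + 0.5). Each mouse counts as 1 replicate. No 2 libraries were duplicates (smallest chi-square per degree of freedom 8.54). Total counts are in the report; intervals cover the spread between mice. The procedure was tested on simulated counts. Genes named besides the members are list genes that passed in a treatment comparison, others with the smallest p of their list, and the 6 most like Etnppl. Gjb6 and Gfap among the markers, and examples of IP over input, were named after their values were seen. Alternatives were DESeq2 1.42.0, RLE size factors, no count filter, other sets of batches, no batch term, a composition covariate, no block and, chosen after seeing the data, leaving out mouse K15. No promoter entry for Pcyt2 was used.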

Additional observations from a re-analysis of the deposited data

Results flagged for a closer look

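In 3 of the 60 groups of 4 to 10 libraries that a treatment, a sex, a fraction and a gene define, 1 library lay far from the others, and chance flags about 1 in 20 groups. All 3 concern Etnppl in IP. Dependent male I11 had 411 CPM, against 228 CPM in the nearest of the 8 dependent males. Non-dependent male I06 had 222 CPM, against 86.5 CPM in the nearest of the 5 non-dependent males. Naive female L33 had 114 CPM, against 51.9 CPM in the nearest of the 8 naive females. The input libraries of these mice had 65.3, 29.8 and 11.8 CPM. Mice I11 and I06 belong to batch I, where Etnppl was high in general; the part of batch in these values was not tested.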

How the results depend on the processing

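Etnppl kept its direction in every treatment comparison and between IP and input under every alternative run, and its input rise in dependent over naive mice and its IP over input difference stayed past the threshold. The mouse block left the Etnppl value of IP over input at 2.91 and changed its SE to 0.04, against 0.10 without the block; the treatment difference between fractions was -0.41 with the block and -0.31 without it, and its count of called genes was 77 with the block and 12 without it. The input difference of Etnppl between dependent and non-dependent mice lost its call without a batch term (0.74), in batches J and K only (0.68), without batch I (0.58) and without batch J (0.90); the cause was not tested. Counts over all genes moved more, and leaving out batches leaves fewer mice. For dependent versus naive IP (933 genes) the count was 1447 with no filter, 235 in batches J and K, 294 without J, 355 without K and 439 without L. For dependent versus non-dependent IP (308) it was 492 in DESeq2, 684 with no filter, 92 with no batch term, 0 in J and K by edgeR and 3 without I. For non-dependent versus naive IP (88) it was 250 in DESeq2, 481 with no filter, 155 with no batch term, 15 in J and K, 25 without J, 25 without K and 36 without L. For dependent versus naive input (469) it was 707 in DESeq2, 17 in J and K, 133 without J, 281 without K, 95 without L and 718 with the composition covariate. For dependent versus non-dependent input (70) it was 112 in DESeq2, 119 with no filter, 28 with no batch term, 0 in J and K, 0 without I and 41 without J. For non-dependent versus naive input (24) it was 60 in DESeq2, 77 with no filter, 51 with no batch term, 8 in J and K, 10 without I, 15 without L and 37 with the covariate. The counts of 0 go with 1720 (IP, J and K), 844 (input, J and K) and 1004 (input, without I) genes at an unadjusted p under 0.05 in edgeR; DESeq2 was run on all 4 batches only. Values near 0 that no fit called changed sign. In input, dependent minus naive became 0.00265 (DESeq2), 0.0011 (RLE), 0.0467 (no batch term), 0.0708 (J and K), 0.0206 (without J) and 0.162 (without L) for Chka. It became 0.0533 (no batch term) and 0.0256 (without J) for Pcyt2, and 0.0884 (no batch term), 0.0458 (without J) and 0.0767 (without L) for Sgpl1. Dependent minus non-dependent in input became 0.0722 without J for Chka, and -0.0884 in J and K and -0.0852 without I for Sgpl1. Non-dependent minus naive in input became -0.0517 without J for Chka, 0.0012 with no batch term for Sgpl1 and 0.0083 without K for Etnk1. In IP, the range took in both signs for dependent minus non-dependent of Chka (-0.181 to 0.116), Pcyt2 (-0.237 to 0.118) and Etnk1 (-0.0357 to 0.0831), and for non-dependent minus naive of Pcyt2 (-0.00651 to 0.302). Female minus male of Sgpl1 in IP became 0.0168 without the IP library of mouse K15. Of the other values of single genes, 361 were labelled the same and 51 lost a call. For members in the IP treatment comparisons and the treatment difference between fractions, the same meant a shift below the SD within treatment and sex. Direction and call did not enter that label for values that no fit called. For correlations it meant a shift below 0.1, and elsewhere the same direction and side of the threshold. With treatment by sex by batch means subtracted, 5 of the correlations with Etnppl moved to between 0.443 and 0.618. Input counts of Etnppl, as low as 26 per library, limit the precision there.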
